A study of Homo sapiens with 12 samples.

Results

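The HOX genes are the subject here: the 39 protein-coding homeobox genes whose symbol is HOX followed by A, B, C or D and a number, out of 62082 gene rows in both deposited tables. The HOXA cluster has 11 of them, HOXB 10, HOXC 9 and HOXD 9. They were measured by RNA sequencing in MCF10A, an established human breast epithelial line that does not form tumours, in 4 derived lines with 3 libraries each. The p53-del H-Ras line carried a deletion of p53 exon 2 and stably expressed the H-RasV12 oncogene from a retrovirus. The p53-del vector line carried the same deletion and the empty pBabepuro vector. The wild-type H-Ras line had wild-type p53 and H-RasV12, and the wild-type vector line had wild-type p53 and pBabepuro. Cells grew untreated in the regular medium with horse serum. Vector and H-Ras lines of 1 background were created together as a pair. The effects of p53 status and of anything else that differs between the pairs cannot be told apart, nor can those of H-Ras and of anything else that differs within a pair. The labels do not say whether a line is a clone. They do not say either that replicates were separate cultures, and p-values then speak only of how 3 libraries of a line spread, which can be technical.

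HOX genes encode homeodomain transcription factors that give cells along the body axis their positional identity. They lie in 4 clusters on different chromosomes, and within a cluster the genes are numbered by paralog group, from those used near the head (low numbers, called anterior) to those used near the tail (high numbers, called posterior). HOX proteins bind DNA together with TALE cofactors (PBX, MEIS and PREP proteins), and the clusters are kept silent by Polycomb and active by Trithorax complexes. Adult cells keep much of the HOX pattern of the tissue they come from, and in mammary gland several HOX genes are known from development and from breast cancer.

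Values are normalized counts, that is, reads divided by the size factor of their library, with libraries named A, B and C within each line. Their order in this text is A, B, C. Errors of levels are SD over n = 3 libraries and errors of log2 fold changes are SE. Fold changes are on the log2(value + 1) scale, which understates the change of low genes, and a gene was called where limma's adjusted p (Benjamini-Hochberg, over the whole table) was under 0.05, two-sided. RNA of bulk cultures was measured, so fewer cells of a kind and less RNA per cell cannot be told apart.

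The windows upstream of 4 HOX genes are shown as examples of an expressed gene, a low gene and 2 silent genes: HOXA9 was expressed in all 4 lines, HOXA6 gave few reads in 3 of them, and HOXD8 and HOXB1 gave 0 reads in all 12 libraries. Each run is the 250 bases before the annotated start on the gene's strand, 5′ to 3′, from RefSeq on GRCh38.p14, and capitals mark CpG dinucleotides. The runs lie at chr7:27165538-27165787 (minus strand) for HOXA9, chr7:27147775-27148024 (minus strand) for HOXA6, chr2:176129455-176129704 (plus strand) for HOXD8 and chr17:48531012-48531261 (minus strand) for HOXB1.
HOXA9: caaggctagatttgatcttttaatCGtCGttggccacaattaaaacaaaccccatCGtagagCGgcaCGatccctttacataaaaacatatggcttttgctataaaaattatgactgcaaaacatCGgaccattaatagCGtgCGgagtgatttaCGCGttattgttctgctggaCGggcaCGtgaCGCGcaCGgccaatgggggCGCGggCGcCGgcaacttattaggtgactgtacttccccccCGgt
HOXA6: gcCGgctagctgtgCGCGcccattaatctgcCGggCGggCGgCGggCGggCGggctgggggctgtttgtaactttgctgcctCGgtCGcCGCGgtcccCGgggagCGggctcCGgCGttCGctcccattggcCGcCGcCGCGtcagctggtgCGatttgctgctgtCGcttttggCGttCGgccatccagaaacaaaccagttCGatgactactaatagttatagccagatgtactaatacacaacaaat
HOXD8: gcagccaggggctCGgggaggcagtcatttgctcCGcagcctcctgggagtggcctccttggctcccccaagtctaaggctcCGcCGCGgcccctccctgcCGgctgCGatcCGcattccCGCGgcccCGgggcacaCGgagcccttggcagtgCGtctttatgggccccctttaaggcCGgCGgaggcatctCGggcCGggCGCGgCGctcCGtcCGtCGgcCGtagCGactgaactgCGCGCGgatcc
HOXB1: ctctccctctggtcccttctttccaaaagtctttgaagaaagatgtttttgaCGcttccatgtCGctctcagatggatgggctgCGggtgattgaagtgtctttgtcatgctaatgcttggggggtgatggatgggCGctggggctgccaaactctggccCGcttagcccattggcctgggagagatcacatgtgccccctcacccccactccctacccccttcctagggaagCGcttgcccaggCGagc
The run of HOXA9 holds 20 CpGs and that of HOXA6 holds 27. Of the silent genes shown, HOXD8 has 28 and HOXB1 has 7. RefSeq windows of 300 bases (250 before the start and 50 after it) were found for 20 HOX genes, 27 windows in all, and HOXC4 and HOXC5 share 1 of them. Silent HOX genes had a median of 24 CpGs over 9 windows (4 to 36). HOX genes at 10 or more normalized counts in at least 1 line had a median of 15 over 14 windows (0 to 29), and all 35116 windows had a median of 14. Of these 14 windows 7 belong to HOXA3 and 2 to HOXA10, so they are not independent.

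Letters of known binding motifs were searched on both strands of the same windows. TGATNNAT, read by HOX proteins together with PBX, was in 3 of 27 HOX windows (HOXA2, HOXB1 and HOXD11) and in 7.4% of all windows. TATAAA, the TATA box, was in 5 HOX windows (HOXA3, HOXA9, HOXD13 and both of HOXA10) and in 11.5% of all. CACCTG, an E-box read by ZEB and SNAI repressors, was in the window of HOXA7 and in 20.6% of all. TTAATTA, a homeodomain core with its flanks, was in the window of HOXD3 and in 2.67% of all. TGANTCA, the AP-1 site, was in 0 HOX windows and in 7.71% of all. TGANTCA and TGATNNAT share their first letters and can overlap.

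The protein-coding genes of the HOXD cluster were silent: all 9 had 0 reads in all 12 libraries, as did HOXB1, HOXB13 and HOXC12. The antisense gene HOXD-AS1 gave traces, with means of 1.02 counts in the wild-type vector line and 0.64 in the wild-type H-Ras line. It was at 0 in both p53-del lines. Over the estimated 109617411 reads of the 12 libraries, 0 reads allow a level of up to 0.0274 CPM (3 reads, counting error only). These 12 genes are 30.8% of the members, and 58.1% of all genes in the tables were likewise at 0 in all 4 group means. The silent genes run from the anterior end (HOXD1 and HOXB1, which act in the hindbrain) to the posterior end (HOXD13, known from limb malformations, and HOXB13, a prostate gene). HOXD10, which has been studied in breast epithelium, was among those at 0. Much of HOXD1, HOXD3 and HOXD4 overlaps other annotated genes (58.1%, 74.1% and 80.5% of their exon bases in GENCODE 29), and reads that fall in 2 genes may have gone uncounted. HOXD8, HOXD9, HOXD12 and HOXD13, however, share 0% of their bases with any other gene and were also at 0.

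A further 7 genes gave reads but stayed under 10 normalized counts in every group mean: HOXA4, HOXA7, HOXA13, HOXB5, HOXB7, HOXB8 and HOXC4. HOXA13, a distal limb and genital gene, had 2 reads in all, 1 in each of 2 wild-type H-Ras libraries. HOXB5 had 6 reads in all. HOXB7, whose overexpression has been tied to loss of epithelial form in MCF10A, had 4 reads in the p53-del H-Ras line, 3 in the p53-del vector line and 0 in both wild-type lines. HOXB8 had 3 reads, 1 read, 0 and 0 in the same order of lines. HOXA4 and HOXC4 had 31 and 35 reads in all. With a filter of 3, HOXC4 gave 1.28 ± 0.39 (log2 fold change ± SE, limma, adjusted p = 0.0372) as p53-del over wild-type in the H-Ras lines, a call lost with no filter (adjusted p = 0.0588). The counts of HOXA13, HOXB5, HOXB7 and HOXB8 are too low to order the lines.

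HOXA7, which acts in the thoracic region in mouse, had nearly all of its reads in the wild-type lines. It had 1 read in the p53-del H-Ras line and 13 reads in the wild-type H-Ras line, and 2 reads in the p53-del vector line and 17 reads in the wild-type vector line. In the H-Ras lines the level ratio of p53-del over wild-type was 0.0702 (95% exact interval 0.00165 to 0.467), and in the vector lines it was 0.104 (0.0117 to 0.439), both for counting error only. Every wild-type library lay above every p53-del library in both comparisons. HOXA7 did not pass the filter of 10 normalized counts, and with a filter of 3 limma gave -2.08 ± 0.47 (adjusted p = 0.0108) in the H-Ras lines and -2.16 ± 0.48 (adjusted p = 0.00862) in the vector lines. Of its exon bases 62.5% lie opposite the antisense gene HOXA-AS3, and the strand setting of the counting was not given, so its reads cannot be assigned to 1 strand.

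The other 20 HOX genes reached a group mean of 10 in at least 1 line, and 14 did so in all 4. By line, 19 of 39 reached it in p53-del H-Ras, 18 in p53-del vector, 15 in wild-type H-Ras and 14 in wild-type vector. The HOXA genes HOXA2, HOXA3, HOXA5, HOXA9 and HOXA10, the HOXB genes HOXB2, HOXB3 and HOXB4 and the HOXC genes HOXC5, HOXC6, HOXC8, HOXC9 and HOXC13 belonged to this common set. Paralog groups 7 and 12 had no member at that level, and groups 4, 8 and 13 had 1 each (HOXB4, HOXC8 and HOXC13). The common set thus held HOXA genes of groups up to 10, HOXB genes of groups 2 to 4, HOXC genes from group 5 to 13, and no HOXD gene.

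**Figure D1:**
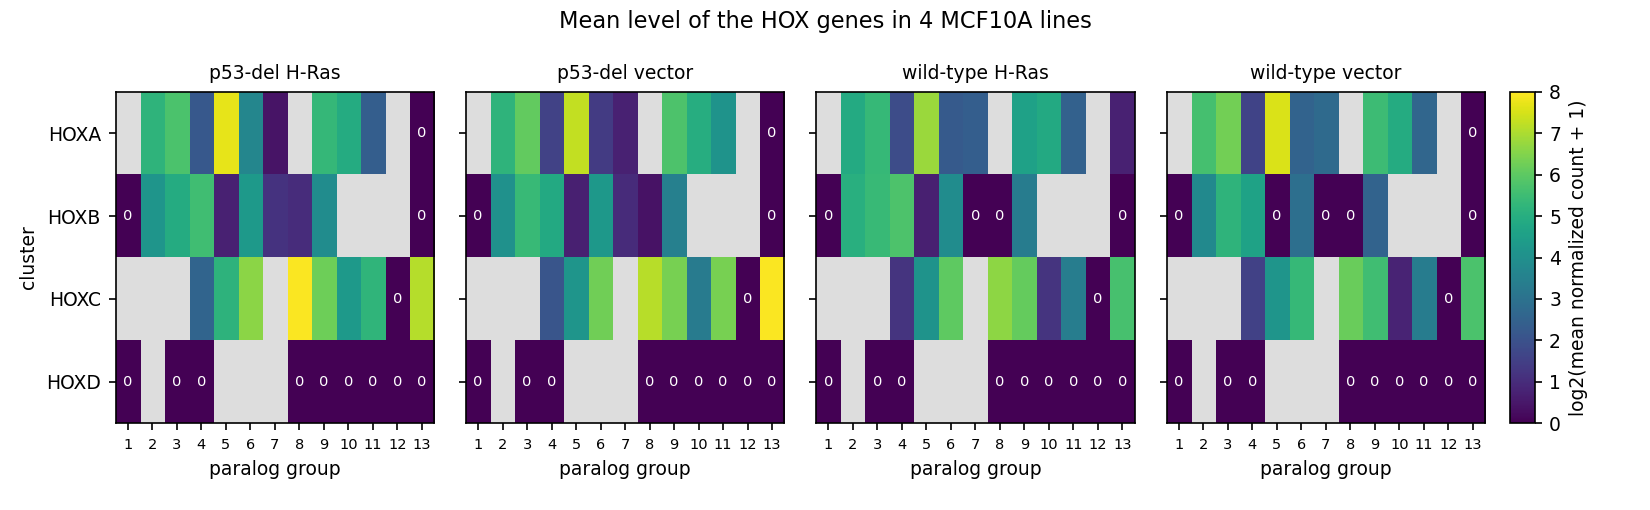
Each panel is 1 line, rows are the 4 clusters, columns the 13 paralog groups, and colour is log2(mean normalized count + 1) over 3 libraries on each table's own scale. Grey squares have no value shown and 0 marks genes at 0. The HOXD row is at 0 in all panels, and HOXC10, HOXC11 and HOXC13 have higher values in both p53-del panels than in both wild-type panels.

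Per kilobase of exon (union of exons in GENCODE 29, levels scaled over the 12 libraries), the most abundant members were HOXA5, HOXC8, HOXC13 and HOXC9. HOXA5, which acts in lung development in mouse, stood at 114.5 counts per kb in p53-del H-Ras, 83.9 in p53-del vector, 67.6 in wild-type H-Ras and 113.9 in wild-type vector. It ranked first in both wild-type lines. HOXC8 ranked first in the p53-del H-Ras line at 124 per kb, against 70.1, 55.6 and 39.6 in the p53-del vector, wild-type H-Ras and wild-type vector lines. HOXC13, a hair and nail gene, ranked first in the p53-del vector line at 96.7 per kb, with 53.3 in p53-del H-Ras, 22.0 in wild-type H-Ras and 22.5 in wild-type vector. HOXC9 had rank 3 or 4 in each line, between 28.4 and 45.3 per kb.

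The depth was close to even, with 7843662 to 10060787 estimated reads per library, and H-Ras was expressed as labelled. HRAS had 17779 ± 1140 normalized counts in the p53-del H-Ras line against 839.7 ± 42.8 in its vector line, and 16949 ± 1903 in the wild-type H-Ras line against 859.9 ± 125 in its vector line. Library C of wild-type H-Ras and library A of wild-type vector stood apart from the other 2 of their groups over all genes (chi-square per degree of freedom of 26.9 and 28.7 for H-Ras C against 2.11 between A and B, and 21.8 and 27.5 for vector A against 4.37 between B and C). Over the HOX genes alone the values were 1.34 and 1.77 for H-Ras C against 0.343 between A and B, and 1.16 and 1.29 for vector A against 0.465 between B and C. The median HOX gene of these libraries deviated by -0.04 (H-Ras C) and -0.03 (vector A) on the log2 scale from the other libraries of its line. The p53-del libraries spread more at the HOX genes. Their largest deviations were 0.30 (H-Ras C), -0.18 (H-Ras A) and 0.18 (vector A). Chi-square per degree of freedom over the HOX genes was 1.1 to 3.19 between p53-del H-Ras libraries and 1.54 to 2.74 between p53-del vector libraries.

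The first comparison asked how H-Ras changed HOX expression in the wild-type lines. HOXA3, HOXA5 and HOXA9 fell with H-Ras, and HOXB2, HOXB4 and HOXC6 rose. These are 6 of 16 members tested (37.5%), 3 in each direction, and 25.6% of the 12440 genes tested were called, 12.9% higher and 12.7% lower. The median log2 fold change was 0.02 over the members and -0.02 over all genes tested. By cluster it was -0.74 over 6 HOXA genes, none of which was above 0, and 1.08 over 4 HOXB genes, all of which were above 0. The 6 HOXC genes had a median of 0.27.

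HOXA5 had 105, 113 and 109 normalized counts in the wild-type H-Ras libraries, against 210.3, 173 and 172 in the wild-type vector libraries. Every H-Ras library was below every vector library, and the log2 fold change was -0.75 ± 0.14, adjusted p = 0.00773. HOXA3, which patterns the pharyngeal arches, had 40.1, 35.4 and 43.5 counts with H-Ras against 67.5, 83.2 and 81.6 with vector. The groups did not overlap here either (-0.95 ± 0.18, adjusted p = 0.00892). HOXA9, which is needed with its paralogs for the mouse mammary gland to develop in pregnancy, had 22.9, 22.9 and 22.2 with H-Ras against 43.8, 39 and 49.2 with vector. The 3 H-Ras values differed by less than 1 count, and the fold change was -0.92 ± 0.20, adjusted p = 0.0141. HOXA9 lost its call without H-Ras A (adjusted p = 0.0539), H-Ras B (0.0561) or vector C (0.0585), and HOXA3 without vector B (0.0501).

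HOXA2 and HOXA10 did not pass. HOXA2, a hindbrain and second-arch gene, had 30.6, 31.5 and 24.3 counts with H-Ras against 60.5, 44.2 and 41.4 with vector (-0.73 ± 0.23, adjusted p = 0.0571), and its groups did not overlap. HOXA10, a uterine patterning gene, lay at 28.3 ± 4.37 with H-Ras and 29.1 ± 1.32 with vector (-0.05 ± 0.21, adjusted p = 0.885).

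HOXB4, which expands blood stem cells when overexpressed, had 52.5, 61.2 and 45.5 counts in the wild-type H-Ras libraries, against 27.2, 22.1 and 21.2 in the vector libraries (1.14 ± 0.22, adjusted p = 0.00807). HOXB2, a hindbrain gene, had 29.6, 34.4 and 31.3 with H-Ras against 11.4, 11.6 and 15.7 with vector (1.25 ± 0.24, adjusted p = 0.00856). Both were above every vector library, and both kept their call in all 13 alternatives tried. HOXB6 had 17.2, 13.4 and 11.1 with H-Ras against 3.5, 8.43 and 7.83 with vector, also without overlap, and did not pass (1.03 ± 0.39, adjusted p = 0.0945). HOXB3 averaged 40.6 ± 4.63 with H-Ras and 35.9 ± 2.81 with vector, with overlapping groups (0.17 ± 0.20, adjusted p = 0.548).

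HOXC6, known from mammary gland development, had 64.9, 68.8 and 56.6 counts with H-Ras against 39.4, 45.3 and 34.7 with vector (0.66 ± 0.19, adjusted p = 0.0418). It was called in 7 of 13 alternatives, and adjusted p ranged from 0.00536 to 0.158 over them. The call was lost without a filter (0.0795), without H-Ras A (0.135) or B (0.158), and without vector A (0.0682), B (0.0726) or C (0.124). HOXC9 had 71.6, 65 and 65.7 with H-Ras against 37.7, 49.5 and 49.2 with vector and did not pass (0.57 ± 0.19, adjusted p = 0.0632), nor did HOXC8 at 99.3 ± 18.6 with H-Ras against 71.3 ± 12.4 with vector (0.47 ± 0.21, adjusted p = 0.148). HOXC5, HOXC11 and HOXC13 had log2 fold changes of -0.04, 0.07 and -0.11. Groups were fully separate for 10 of 16 members, 5 higher and 5 lower, and for 42.4% of all genes tested (21.4% higher and 21.1% lower). In the authors' deposited table, adjusted p was under 0.05 for 4 of 25 members, HOXB2 and HOXB4 higher and HOXA3 and HOXA5 lower, and for 9.32% of its genes (4.70% higher and 4.62% lower).

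**Figure D2:**
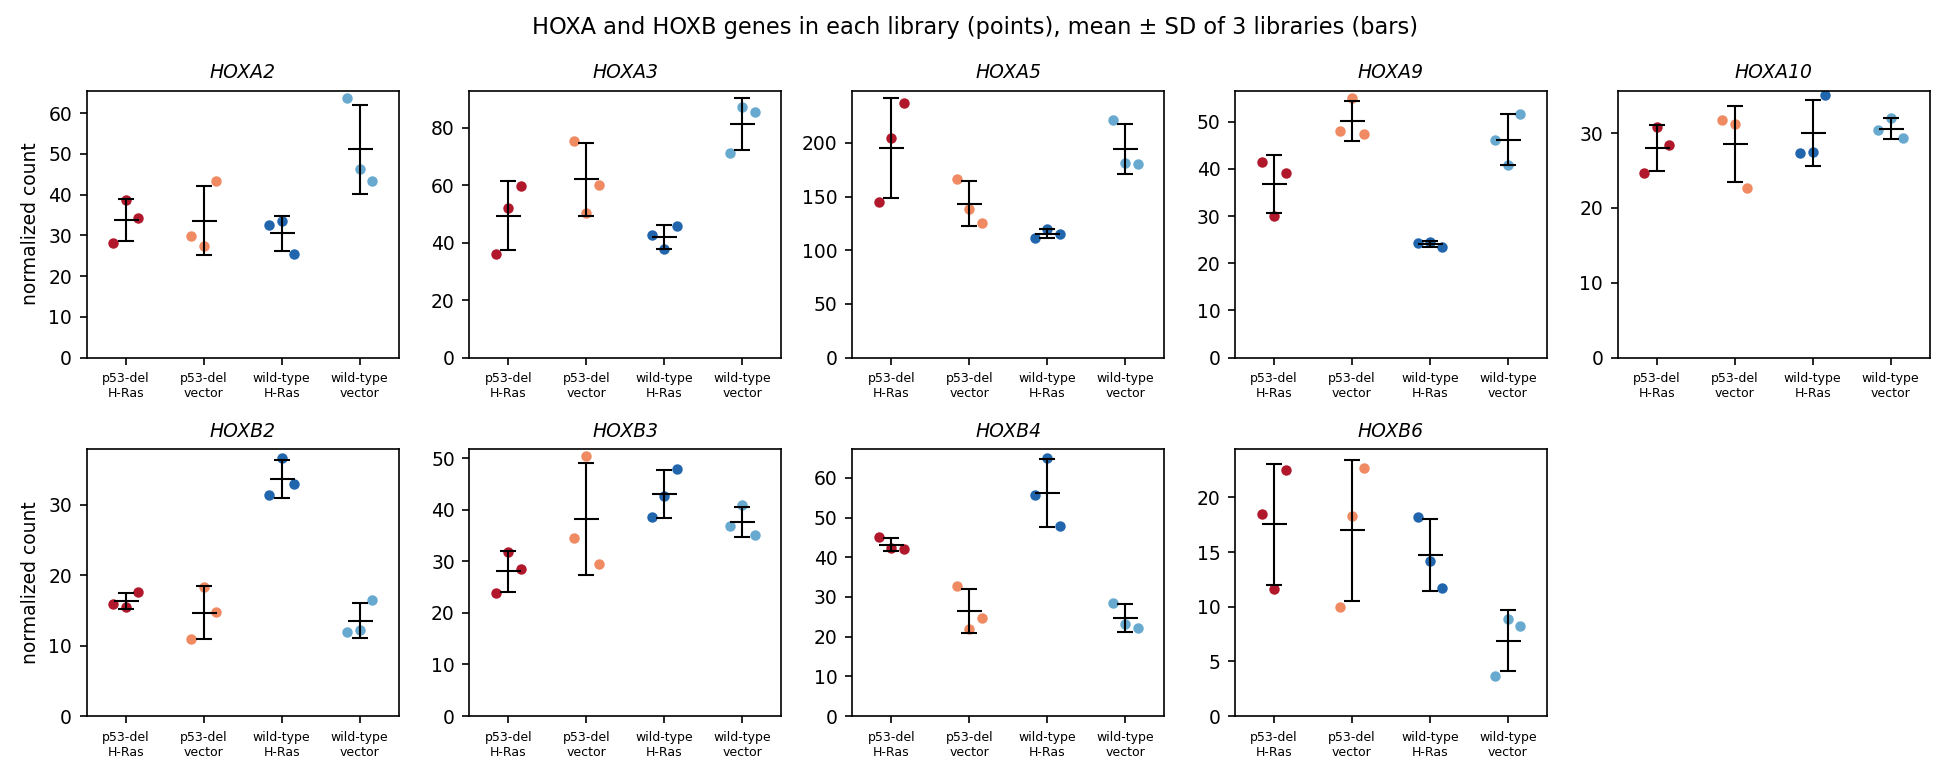
Each panel is 1 HOXA or HOXB gene, with 1 point per library (normalized count, scaled over the 12 libraries, axes from 0) and bars for the mean ± SD of 3 libraries. In the wild-type lines HOXA3, HOXA5 and HOXA9 are lower and HOXB2 and HOXB4 higher with H-Ras, without overlap. In the p53-del lines HOXA5 overlaps between H-Ras and vector.

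In the p53-del lines, H-Ras went with changes at the HOXC cluster in both directions. HOXC5, HOXC8 and HOXC10 rose, the posterior genes HOXC11 and HOXC13 fell, and HOXB4 rose. Of 18 members tested 7 were called (38.9%), 4 higher and 3 lower, where 56.1% of the 12754 genes tested were called, 27.7% higher and 28.3% lower. The median log2 fold change was 0.03 over the members and 0.01 over all genes. The 7 HOXC genes had a median of 0.37, with 3 called higher and 2 lower.

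HOXC8, a gene of the thoracic body axis, had 257, 235 and 246 counts in the p53-del H-Ras libraries, against 186, 126 and 111 in the p53-del vector libraries (0.83 ± 0.17, adjusted p = 0.00163). The vector libraries were spread more widely than the H-Ras libraries, and the groups did not overlap. HOXC5 had 31.6, 31.4 and 41.2 with H-Ras against 15.5, 20.5 and 14.7 with vector (1.0 ± 0.24, adjusted p = 0.00418). HOXC10, a posterior gene that is active in spinal cord and hindlimb in mouse, had 15.8, 22.3 and 19.6 with H-Ras against 8.7, 6.84 and 11.5 with vector (1.03 ± 0.29, adjusted p = 0.0118). It is a low gene, and its call was lost without H-Ras B (adjusted p = 0.0583).

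The 2 genes at the posterior end went the other way. HOXC13 had 108, 138 and 162 counts in the p53-del H-Ras libraries, against 263, 217 and 268 in the p53-del vector libraries (-0.88 ± 0.16, adjusted p = 0.000639). HOXC11 had 41.9, 26.4 and 41.2 with H-Ras against 77.3, 87.9 and 80.7 with vector (-1.17 ± 0.21, adjusted p = 0.000588). All vector libraries were above all H-Ras libraries for both genes, and both were called in all 12 alternatives. HOXC6 at 97.4 ± 0.559 with H-Ras against 75.6 ± 7.6 with vector did not pass (0.37 ± 0.14, adjusted p = 0.0511), and HOXC9, which lies between HOXC8 and HOXC10 on the chromosome, lay at 74.4 ± 10.1 with H-Ras and 80.9 ± 13.9 with vector, with overlapping groups (-0.11 ± 0.18, adjusted p = 0.615). Scaled over the 12 libraries, the HOXC genes of groups 1 to 8 summed to 364 ± 10.4 counts with H-Ras and 222 ± 44.5 with vector. Those of groups 9 to 13 summed to 253 ± 35.7 with H-Ras and 396 ± 23.1 with vector.

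HOXB4 had 47.5, 44.6 and 44.3 counts in the p53-del H-Ras libraries, against 34.8, 23.4 and 26.2 in the vector libraries (0.69 ± 0.21, adjusted p = 0.0157). It was the 1 member called in the same direction in both H-Ras comparisons. HOXA5 had 153, 215 and 249.5 with H-Ras against 177, 148 and 133 with vector, overlapping and not called (0.41 ± 0.18, adjusted p = 0.0739).

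Of the remaining tested members, HOXA9 at 38.8 ± 6.5 with H-Ras against 53.4 ± 4.55 with vector had groups that did not overlap and no call (-0.46 ± 0.20, adjusted p = 0.0648). HOXA2, HOXA3, HOXA10, HOXB2, HOXB3, HOXB6 and HOXB9 overlapped between the groups, with log2 fold changes of -0.42 to 0.41. Groups did not overlap for 9 of 18 members, 5 higher and 4 lower, and for 63.2% of all genes tested (31.3% higher and 31.9% lower). HOXA6 and HOXA11 did not reach 10 counts in 3 libraries and were not tested with that filter. HOXA6 had 4.65, 14.2 and 16.5 counts with H-Ras against 1.93, 1.95 and 1.05 with vector, and with a filter of 3 its log2 fold change was 2.14 ± 0.49 (adjusted p = 0.00338). Of its exon bases 39.3% lie opposite annotated HOXA-AS3. HOXA11, a limb and uterine gene, had 4.65, 3.04 and 5.15 with H-Ras against 9.66, 24.4 and 14.7 with vector and gave -1.64 ± 0.39 (adjusted p = 0.00439) with that filter. For HOXA11, 31.1% of the exon bases lie opposite annotated HOXA11-AS. In the authors' deposited table, adjusted p was under 0.05 for 7 of 26 members, among them HOXA6, HOXC5 and HOXC8 higher and HOXA11, HOXC11 and HOXC13 lower, and for 26.1% of its genes (12.9% higher and 13.2% lower).

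**Figure D3:**
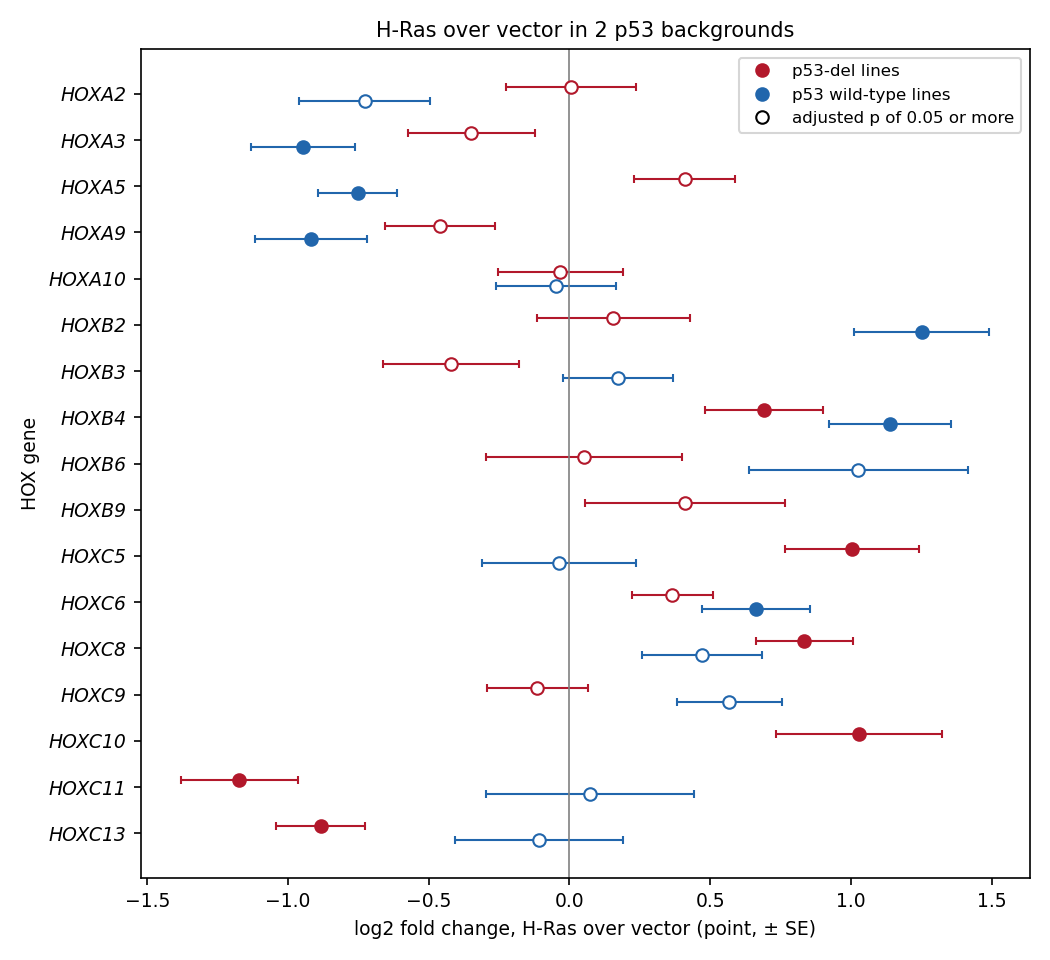
Points are log2 fold changes of H-Ras over vector with their SE for HOX genes tested, in cluster order, with the p53-del lines in red and the wild-type lines in blue. Filled points have an adjusted p under 0.05. HOXA5 and HOXB2, the 2 genes with a called difference between the backgrounds, each have 1 filled and 1 open point, and HOXB4 is filled on the right in both.

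The difference between the 2 H-Ras responses was tested directly over the 12 libraries, as p53-del minus wild-type. It was called for HOXA5 (1.17 ± 0.25, adjusted p = 0.00817), whose H-Ras response was 0.41 in the p53-del lines and -0.75 in the wild-type lines, and this call held in all 18 alternatives. It was also called for HOXB2 (-1.10 ± 0.34, adjusted p = 0.0445), with responses of 0.16 in the p53-del lines and 1.25 in the wild-type lines, but in only 5 of 18 alternatives, over which adjusted p ranged from 0.0285 to 0.144. Of the 12 libraries, p53-del vector A and wild-type vector C are those that could be left out without losing it, and leaving out any other gave 0.062 to 0.106. These are 2 of 18 members (11.1%), and 17.0% of the 13197 genes tested were called, 9.18% higher and 7.80% lower. The median difference was -0.29 over the members and -0.01 over all genes.

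For HOXC11 and HOXC13 the difference did not pass: -1.24 ± 0.41, adjusted p = 0.0564 for HOXC11 and -0.77 ± 0.36, adjusted p = 0.156 for HOXC13. Without the 2 libraries that stood apart HOXC13 gave -1.14 (adjusted p = 0.00737). HOXC5 gave 1.04 ± 0.34, adjusted p = 0.0555, and 1.19 (adjusted p = 0.0413) without those libraries, while HOXC11 gave -0.94 (adjusted p = 0.0758) without them. Of the 16 members tested in both H-Ras comparisons, 10 had the same sign and 6 the opposite sign.

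The p53-del lines were then set against the wild-type lines, on values scaled over the 12 libraries. Between the vector lines HOXC6, HOXC8, HOXC9, HOXC11 and HOXC13 were higher in the p53-del vector line. Among members that passed the filter of 10, limma called 0 lower. HOXA7, which did not pass it, was called lower with a filter of 3, as given above. The HOXC genes called higher are 5 of 15 members tested (33.3%). Of the 12488 genes tested 30.3% were called, 15.1% higher and 15.2% lower. At an unadjusted p under 0.05 there were 7 members. The median log2 fold change was 0.78 over 6 HOXC genes, -0.26 over 6 HOXA genes, 0.08 over 3 HOXB genes and 0.00 over all genes tested.

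HOXC11 had 72.6, 82.5 and 75.9 counts in the p53-del vector libraries, against 5.54, 11.1 and 12.9 in the wild-type vector libraries, a ratio of means of 7.84 (2.92 ± 0.31, adjusted p = 0.000159). HOXC13 had 247, 204 and 252 in p53-del cells against 57.2, 59.6 and 46.9 in wild-type cells, a ratio of 4.29 (2.08 ± 0.17, adjusted p = 3.88e-05). Both groups were far apart relative to their spread, and both genes were called in all 13 alternatives. HOXC10 had 27 reads in the p53-del vector line and 2 in the wild-type vector line, a level ratio of 12 (95% exact interval 3.01 to 104, counting error only). It was too low for the filter of 10, and with a filter of 3 it gave 2.49 ± 0.48 (adjusted p = 0.00404).

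Toward the middle of the cluster the differences were smaller. HOXC8 had 174, 118 and 104 counts in the p53-del vector libraries, against 60.9, 86.2 and 77.4 in the wild-type vector libraries (0.79 ± 0.23, adjusted p = 0.0261). HOXC6 had 79, 65.1 and 69 in p53-del cells against 41.5, 47.5 and 36.3 in wild-type cells (0.76 ± 0.20, adjusted p = 0.0169), and HOXC9 had 88, 78 and 62.1 in p53-del cells against 39.7, 51.9 and 51.6 in wild-type cells (0.66 ± 0.21, adjusted p = 0.0416). None of these 3 overlapped between the lines, but each lost its call without p53-del vector A (adjusted p = 0.119, 0.0912 and 0.177 for HOXC8, HOXC6 and HOXC9). HOXC8 also lost it without p53-del vector B (0.0534), and HOXC6 without p53-del vector C (0.0501) or wild-type vector C (0.0528). HOXC9 was called in 6 of 13 alternatives, with calls also lost without p53-del vector B (0.116) and each of wild-type vector A (0.063), B (0.0721) and C (0.0588). HOXC5, at the anterior side, averaged 15.9 ± 2.96 in the p53-del vector line and 17.9 ± 4.82 in the wild-type vector line (-0.15 ± 0.29, adjusted p = 0.75). The summed level of the HOXC genes of groups 9 to 13 was 396 ± 23.1 in the p53-del vector line and 113 ± 10.7 in the wild-type vector line, and that of groups 1 to 8 was 222 ± 44.5 in the p53-del and 136 ± 14.8 in the wild-type vector line.

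No HOXA or HOXB gene that passed the filter of 10 was called in this comparison. HOXA5 averaged 143 ± 20.9 in the p53-del vector line and 194 ± 23.4 in the wild-type vector line, without overlap (-0.44 ± 0.16, adjusted p = 0.0671). HOXA2 likewise had no overlap, at 33.6 ± 8.54 in p53-del cells and 51.1 ± 10.9 in wild-type cells (-0.60 ± 0.25, adjusted p = 0.107). HOXB2, HOXB3 and HOXB4 lay within 0.10 of 0 on the log2 scale. Groups did not overlap for 8 of 15 members, 6 higher and 2 lower, and for 45.0% of all genes tested (22.4% higher and 22.7% lower).

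**Figure D4:**
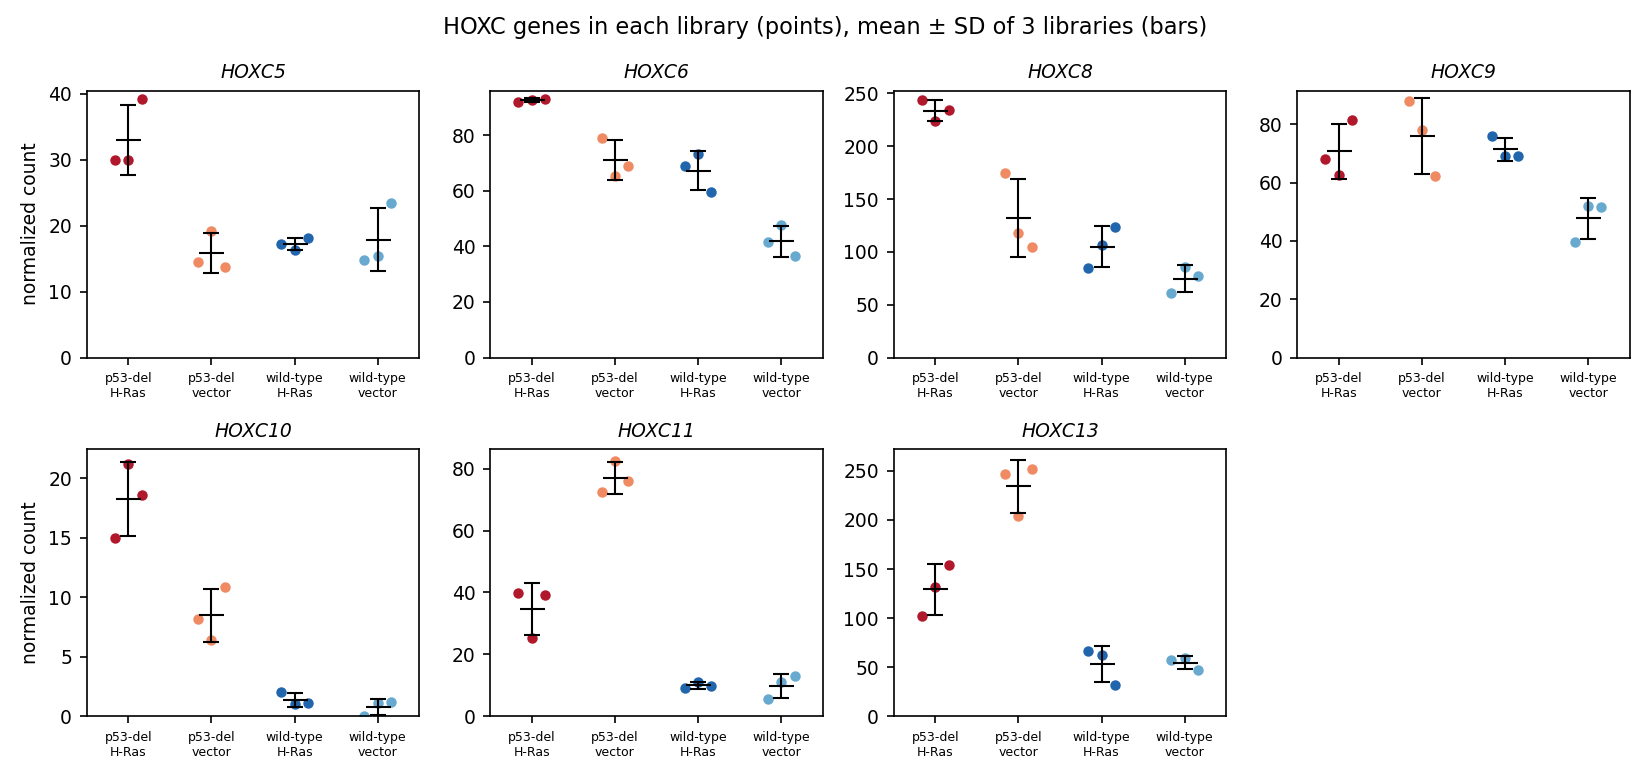
Each panel is 1 HOXC gene, with 1 point per library (normalized count, scaled over the 12 libraries, axes from 0) and bars for the mean ± SD of 3 libraries. HOXC10, HOXC11 and HOXC13 are higher in both p53-del lines than in both wild-type lines, and within the p53-del pair HOXC10 is higher and HOXC11 and HOXC13 are lower with H-Ras.

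Between the H-Ras lines members of HOXC were higher in p53-del cells and members of HOXB lower. Called higher in the p53-del H-Ras line were HOXC5, HOXC6, HOXC8, HOXC10, HOXC11, HOXC13 and HOXA5, and called lower were HOXB2 and HOXB3. These are 9 of 18 members tested (50%), and 36.6% of the 12651 genes tested were called, 18.6% higher and 18.0% lower. The median log2 fold change was 1.16 over 7 HOXC genes, 0.17 over 6 HOXA genes, -0.36 over 5 HOXB genes and -0.01 over all genes. This comparison and those above share libraries, so their calls are not independent.

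HOXC10 had 15, 21.2 and 18.6 counts in the p53-del H-Ras libraries, against 2.03, 1.02 and 1.06 in the wild-type H-Ras libraries (3.04 ± 0.32, adjusted p = 0.000337). The ratio of levels was 13.2 (95% exact interval 4.90 to 50.2, 58 against 4 reads). HOXC11 had 39.7, 25.1 and 39.2 in p53-del cells against 9.12, 11.2 and 9.57 in wild-type cells (1.68 ± 0.26, adjusted p = 0.00202). HOXC13 had 102, 131 and 154 in p53-del cells against 65.9, 62 and 31.9 in wild-type cells (1.31 ± 0.30, adjusted p = 0.0115), and lost its call without p53-del H-Ras C (adjusted p = 0.0553). None of these groups overlapped.

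HOXC8 had 244, 224 and 234 counts in the p53-del H-Ras libraries, against 85.2, 107 and 123 in the wild-type H-Ras libraries (1.16 ± 0.16, adjusted p = 0.00105), and was called in all 13 alternatives. HOXC5 had 30, 29.9 and 39.2 in p53-del cells against 17.2, 16.3 and 18.1 in wild-type cells (0.89 ± 0.21, adjusted p = 0.0136), with its call lost without p53-del H-Ras C (adjusted p = 0.0668). HOXC6 had 91.8, 92.6 and 93.1 in p53-del cells against 69, 73.2 and 59.5 in wild-type cells (0.46 ± 0.15, adjusted p = 0.0439) and was called in 5 of 13 alternatives, with adjusted p of 0.0508 to 0.125 when any 1 of the 6 libraries was left out. HOXC9, by contrast, lay at 70.7 ± 9.6 in the p53-del H-Ras line and 71.4 ± 4 in the wild-type H-Ras line (-0.02 ± 0.16, adjusted p = 0.928).

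HOXA5 had 145, 205 and 237 counts in the p53-del H-Ras libraries, against 112, 120.0 and 115 in the wild-type H-Ras libraries (0.73 ± 0.19, adjusted p = 0.0196). The p53-del values were spread widely while the wild-type values were close together, and the call was lost without wild-type H-Ras A, p53-del H-Ras B or p53-del H-Ras C (adjusted p = 0.0561, 0.0806 and 0.0783). HOXB2 had 15.9, 15.4 and 17.6 in p53-del cells against 31.4, 36.6 and 33 in wild-type cells (-1.0 ± 0.20, adjusted p = 0.00643), and was called in all 13 alternatives. HOXB3, which lies next to HOXB2 and HOXB4, had 23.8, 31.8 and 28.4 in p53-del cells against 38.5, 42.7 and 47.8 in wild-type cells (-0.60 ± 0.20, adjusted p = 0.0489), a call kept in 2 of 13 alternatives, over which adjusted p ranged from 0.0432 to 0.142, and lost without any 1 of the 6 libraries. HOXB4 did not overlap between the lines and did not pass (-0.36 ± 0.18, adjusted p = 0.152). Groups did not overlap for 11 of 18 members, 8 higher and 3 lower, and for 53.9% of all genes tested (26.7% higher and 27.2% lower).

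**Figure D5:**
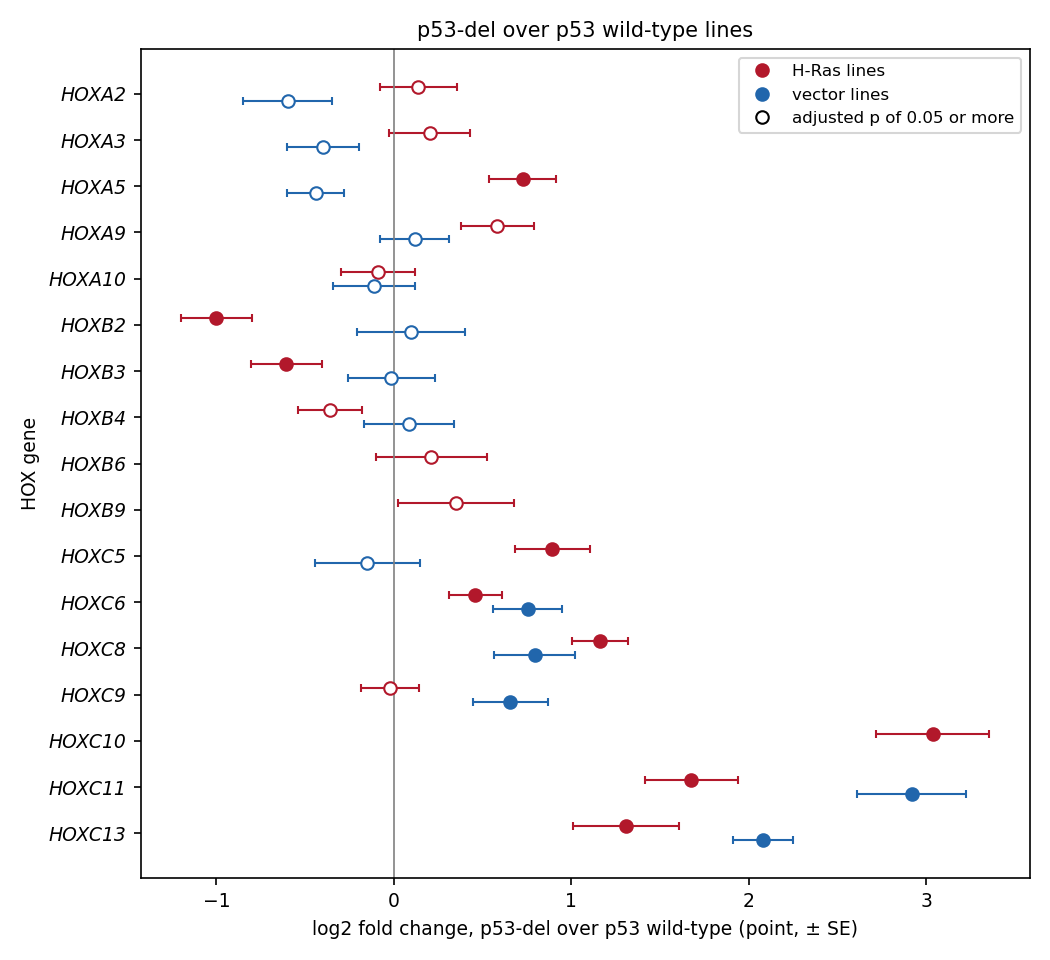
Points are log2 fold changes of p53-del over wild-type with their SE for HOX genes tested, in cluster order, with the H-Ras lines in red and the vector lines in blue. Filled points have an adjusted p under 0.05. HOXC8, HOXC11 and HOXC13 lie to the right in both pairs of lines, HOXC10 was tested in the H-Ras lines alone, and HOXB2 lies to the left in the H-Ras lines.

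Over the 5 comparisons, 18 members were tested in at least 1 and 21 were tested in none. Genes that lie close together in a cluster can share reads or have reads left uncounted. HOXA5, HOXC8 and HOXC11 share 0% of their exon bases with other GENCODE genes, HOXC13 shares 7.10% with an antisense gene, HOXB2 3.72%, HOXC10 9.82%, HOXB4 17.1% and HOXC5 33.9%. HOXA9 shares 27%, HOXA3 17.9%, HOXC6 15.7%, HOXB3 13.2% and HOXC9 9.71%. These overlaps come from a later annotation on GRCh38 than the one used for counting, which is not given in the sources used here.

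Of 25 listed genes of the clusters, mostly noncoding, 12 to 14 were at 0 in a line. Those at 0 in every line include PRAC1, PRAC2 and the microRNA genes MIR10B, MIR196A1, MIR196B and MIR615. Whether oligo-dT libraries capture microRNAs was not tested, so these microRNA zeros do not show silence. HOTAIRM1 averaged 47.36 counts in p53-del H-Ras, 36.54 in p53-del vector, 36.25 in wild-type H-Ras and 42.82 in wild-type vector. HOXA-AS2 averaged 28.25, 23.75, 12.88 and 16.73 in the same order. With H-Ras, 1 of 5 tested was called, lower, in the p53-del lines, and limma called 0 of 2 tested in the wild-type lines, with 0 at an unadjusted p under 0.05. Among all genes tested, 56.1% were called in the p53-del lines and 25.6% in the wild-type lines. HOXC-AS5, an antisense gene of the HOXC cluster, had 14, 5.07 and 6.18 normalized counts in the p53-del H-Ras libraries, against 40.6, 29.3 and 37.7 in the p53-del vector libraries (-2.08 ± 0.35, adjusted p = 0.000404). In the wild-type H-Ras and vector lines it averaged 2.27 ± 0.523 and 1.97 ± 0.82, and its difference between the vector lines was called (3.53 ± 0.35, adjusted p = 0.000117), as was its difference between the H-Ras responses (-2.23 ± 0.54, adjusted p = 0.0149). Its level was highest in the p53-del vector line and next in the p53-del H-Ras line, as were those of HOXC11 and HOXC13. Without a known strand setting, reads of an antisense gene and of the gene opposite to it cannot be told apart.

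HOTAIR, a noncoding RNA transcribed from the HOXC cluster and studied in breast cancer for its action on HOXD, is named after its values were seen. It averaged 15.1 ± 4.31 counts in the p53-del H-Ras line and 12.3 ± 4.11 in the p53-del vector line, against 2.55 ± 2.92 in the wild-type H-Ras line and 2.81 ± 1.73 in the wild-type vector line. With a filter of 3 the difference of p53-del over wild-type was 2.43 ± 0.67 (adjusted p = 0.0259) in the H-Ras lines and 1.75 ± 0.49 (adjusted p = 0.0238) in the vector lines. The H-Ras response of HOTAIR in the p53-del lines did not pass (0.29 ± 0.34, adjusted p = 0.501).

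Among the TALE cofactors, MEIS3 rose with H-Ras and TGIF2 fell with it in both backgrounds. Of 11 listed genes, 2 rose and 4 fell with H-Ras in the p53-del lines (10 tested), and 1 rose and 1 fell in the wild-type lines (9 tested), where limma called 56.1% and 25.6% of all genes in the p53-del and the wild-type lines. MEIS3 averaged 438 ± 24.2 counts in the p53-del H-Ras line and 194 ± 24 in the p53-del vector line (1.18 ± 0.12, adjusted p = 6.36e-06), and 90.6 ± 38.3 in the wild-type H-Ras line and 17.9 ± 18 in the wild-type vector line (2.60 ± 0.68, adjusted p = 0.0288). In the wild-type lines H-Ras C (46.5) and vector A (38.6), the libraries that stood apart, were the lowest and the highest of their groups. MEIS3 was also higher in p53-del over wild-type cells (2.21 ± 0.33, adjusted p = 0.00159 in the H-Ras lines and 3.64 ± 0.55, adjusted p = 0.00108 in the vector lines). TGIF2, a TALE repressor, fell in both backgrounds (-0.75 ± 0.11, adjusted p = 0.000182 in the p53-del lines and -0.97 ± 0.14, adjusted p = 0.00251 in the wild-type lines). The median over the list was -0.04 in the p53-del H-Ras comparison, against 0.01 over all genes tested, and -0.24 in the wild-type one, against -0.02.

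Polycomb subunits moved in both directions. Of 27 subunits tested, 9 rose and 7 fell with H-Ras in the p53-del lines, where 56.1% of all genes were called. In the wild-type lines 3 rose and 1 fell, where 25.6% of all genes were called. EZH2, the H3K27 methyltransferase, averaged 135 ± 15.8 counts with H-Ras and 470.4 ± 15.2 with vector in the p53-del lines (-1.80 ± 0.11, adjusted p = 1.84e-07). In the wild-type lines it had 150.8, 122.3 and 388.2 with H-Ras against 280.4, 429.9 and 423.7 with vector (-0.94 ± 0.42, adjusted p = 0.142). There H-Ras C and vector A, the libraries that stood apart, were the highest and the lowest of their groups. The missing call for EZH2 therefore does not show that its fall was particular to the p53-del lines. PHC2, a PRC1 subunit, averaged 4731 ± 119 in the p53-del H-Ras line and 1308 ± 258 in its vector line (1.87 ± 0.13, adjusted p = 3.11e-07), and 3547 ± 636 and 1501 ± 148 in the wild-type H-Ras and vector lines (1.23 ± 0.15, adjusted p = 0.00122). CBX6 rose in the p53-del lines (1.76 ± 0.13, adjusted p = 7.07e-07), and CBX2 fell in the wild-type lines (-1.17 ± 0.24, adjusted p = 0.0107). Between the H-Ras lines 9 subunits were higher and 2 lower in p53-del cells, led by CBX8, CBX2 and CBX7 (1.40, 1.28 and 1.20), and between the vector lines 4 were higher and 1 lower. Over all genes tested, 36.6% were called between the H-Ras lines (18.6% higher and 18.0% lower). Between the vector lines 30.3% were called (15.1% higher and 15.2% lower). The list's medians with H-Ras were 0.17 (p53-del) and -0.18 (wild-type).

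Of 14 Trithorax and H3K27 demethylase genes tested, 1 rose and 4 fell with H-Ras in the p53-del lines, and 2 fell in the wild-type lines, against 56.1% of all genes called in the p53-del and 25.6% in the wild-type lines. KDM6A, a demethylase that removes the Polycomb mark, fell in both (-1.06 ± 0.10, adjusted p = 3.57e-06 in the p53-del and -0.76 ± 0.12, adjusted p = 0.00363 in the wild-type lines), and WDR5, a COMPASS subunit, fell in the p53-del lines (-0.81 ± 0.08, adjusted p = 4.68e-06). In the wild-type lines WDR5 gave -0.475 ± 0.226 (adjusted p = 0.165), with H-Ras C the highest and vector A the lowest of their groups. In p53-del over wild-type cells 4 of the 14 genes were higher and none lower between the H-Ras lines. Between the vector lines 3 were higher and 1 lower. KMT2B, RBBP5 and ASH1L were higher in both. Of all genes, 36.6% were called between the H-Ras lines and 30.3% between the vector lines. Of 7 CTCF and cohesin genes, which set the boundaries of HOX domains, 6 fell in the p53-del H-Ras comparison, led by SMC1A (-1.45 ± 0.08, adjusted p = 7.53e-08), RAD21 (-0.96 ± 0.08, adjusted p = 1.79e-06) and CTCF (-0.75 ± 0.09, adjusted p = 3.26e-05). In the wild-type lines limma called 0 of 7, with 0 at an unadjusted p under 0.05. There SMC1A, RAD21 and CTCF had log2 fold changes of -0.70, -0.23 and -0.43. For all of these named genes, the libraries that stood apart were the highest (H-Ras C) and the lowest (vector A) of their groups. SMC1A had 1436, 1382 and 3037 counts with H-Ras against 2084, 3372 and 3703 with vector. The missing calls therefore do not show that the fall was particular to the p53-del lines.

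Retinoic acid is a classical inducer of anterior HOX genes, and the largest called changes of its pathway were in a gene of its synthesis. Of 18 listed genes 10 were tested, of which 2 rose and 4 fell with H-Ras in the p53-del lines and 1 rose and 4 fell in the wild-type lines. Over all genes 56.1% were called in the p53-del and 25.6% in the wild-type lines. ALDH1A3, which makes retinoic acid from retinaldehyde, averaged 1810.0 ± 260.3 counts with H-Ras and 11268 ± 376 with vector in the p53-del lines (-2.65 ± 0.10, adjusted p = 4.9e-09), and 223 ± 28.6 and 3457 ± 163 in the wild-type H-Ras and vector lines (-3.95 ± 0.12, adjusted p = 3.84e-06). DHRS3, a retinaldehyde reductase, fell in both backgrounds (-1.25 ± 0.22, adjusted p = 0.000576 in the p53-del and -1.94 ± 0.24, adjusted p = 0.00106 in the wild-type lines). CRABP2, a retinoic acid carrier, fell in the p53-del lines (-1.98 ± 0.16, adjusted p = 1.21e-06) and did not pass in the wild-type lines (-0.96 ± 0.31, adjusted p = 0.0582). The receptor gene RARA rose in both backgrounds (0.85 ± 0.12, adjusted p = 0.000101 in the p53-del and 0.68 ± 0.13, adjusted p = 0.00844 in the wild-type lines). Between the H-Ras lines 6 of 10 genes were higher and none lower in p53-del cells, and between the vector lines 3 were higher and none lower. Of all genes tested, 18.6% were called higher between the H-Ras lines and 15.1% between the vector lines. The medians with H-Ras were -0.11 (p53-del) and -0.63 (wild-type).

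Genes that flank the clusters were called in both directions, 3 higher and 5 lower of 12 tested in the p53-del H-Ras comparison and 3 higher and 1 lower of 14 in the wild-type one, beside 56.1% of all genes called in the p53-del lines (27.7% higher and 28.3% lower) and 25.6% in the wild-type lines. SKAP2, beside HOXA, was higher with H-Ras in both (1.58 ± 0.11, adjusted p = 5.14e-07 in the p53-del and 0.76 ± 0.15, adjusted p = 0.00944 in the wild-type lines), while no HOXA gene that passed the filter of 10 was called higher in either. HOXA6, which did not pass it, was called higher in the p53-del lines with a filter of 3 (2.14 ± 0.49, adjusted p = 0.00338). CBX5, beside HOXC, fell in the p53-del lines (-1.11 ± 0.11, adjusted p = 5.57e-06). In the wild-type lines CBX5 gave -0.56 ± 0.24 (adjusted p = 0.127), with H-Ras C the highest and vector A the lowest of their groups. KIAA1715, beside HOXD, was called lower with H-Ras in the p53-del lines (-0.70 ± 0.10, adjusted p = 0.000182) and higher in the wild-type lines (0.53 ± 0.13, adjusted p = 0.0226), so reads were present near the silent cluster. EVX2, also beside HOXD, was at 0. Of 10 other homeobox regulators, CDX1, CDX2 and CDX4 were at 0 in all 12 libraries. PDX1, the 1 gene of the list that was tested, was called higher in the p53-del H-Ras line than in the wild-type H-Ras line (2.45 ± 0.56, adjusted p = 0.0118).

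Markers of cell type moved with H-Ras beside the HOX genes. Of 8 basal markers 7 were tested, of which 6 fell in the p53-del lines and 5 in the wild-type lines, and none rose. Of 9 luminal markers 8 were tested, of which 1 rose and 6 fell in the p53-del lines and 7 fell in the wild-type lines. Of 12 mesenchymal markers, 5 rose and 1 fell in the p53-del lines (6 tested) and 6 rose and 1 fell in the wild-type lines (7 tested). Over all genes tested, 27.7% were called higher and 28.3% lower in the p53-del lines. In the wild-type lines these shares were 12.9% and 12.7%. Summed levels leave out KRT5 (basal) and FN1 (mesenchymal), whose means were too high to solve in some groups. The 11 mesenchymal markers left summed to 6875 to 7464 counts in the p53-del H-Ras libraries against 230 to 334 in the p53-del vector libraries, and to 10626 to 11899 in the wild-type H-Ras libraries against 1596 to 1849 in the wild-type vector libraries. The 7 basal markers left summed to 22707 to 24700 counts with H-Ras and 41454 to 48957 with vector in the p53-del lines, and to 19168 to 23390 with H-Ras and 31257 to 36710 with vector in the wild-type lines. The 9 luminal markers summed to 6259 to 6908 counts with H-Ras and 10768 to 12383 with vector in the p53-del lines, and to 4285 to 5724 with H-Ras and 13203 to 14327 with vector in the wild-type lines. The fibroblast collagens COL1A2 and COL3A1 were at 0 in all 4 lines, as were the leukocyte genes PTPRC, CD3E and SPI1 and the endothelial gene PECAM1. The leukocyte genes LAPTM5 and CD14 rose with H-Ras in the p53-del lines, and LAPTM5 in the wild-type lines. Of 5 endothelial markers KDR rose in both. Marker levels also differed between the p53-del and wild-type lines, with 5 mesenchymal markers lower and none higher in p53-del cells between the H-Ras lines (7 tested), and 4 lower and none higher between the vector lines (6 tested). Of the luminal markers, 3 were higher and 1 lower between the H-Ras lines (6 tested), and 1 higher and 6 lower between the vector lines (8 tested). Of the basal markers, 1 was higher and 3 lower between the H-Ras lines (6 tested), and 2 higher and 1 lower between the vector lines (7 tested). Of all genes tested, 18.6% were called higher and 18.0% lower between the H-Ras lines. Between the vector lines these shares were 15.1% and 15.2%. The part of these marker shifts in the HOX results was not tested.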

How the data were processed

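RNA from 12 MCF10A samples, in 4 groups of 3, was enriched with oligo-dT beads and made into TruSeq libraries, per the labels' protocols. FastQC, Trimmomatic, TopHat, SAMtools and HTSeq on GRCh37 are named, per the submitters' processing notes. Versions, annotation, strand setting and normalization tool are "not given in the sources used here". In 1 table per p53 background, the authors deposited a mean signal per group (read counts divided by size factors, as the values showed), a fold change that is the ratio of the means, and a p-value with its adjusted value.

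The columns used hold no single library. The means carry 15 digits, so the whole reads of the 3 libraries behind each could be solved for (99.8% to 99.9% of genes above 0 per group, up to a mean of 20000). Of 1000 means per group shifted by a relative 1e-07, 0 were solved, and of 1000 simulated means per group 1000 came out right. The letters A, B and C follow the size factors, largest first, and cannot be matched to replicate numbers. Every SD and test rests on solved values. Intervals and limits cover counting error only.

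limma 3.58.1 (R 4.3.3) with a mean-variance trend was fitted to log2(value + 1), over genes that reached 10 normalized counts in 3 or more of the libraries fitted. The H-Ras comparisons used the 6 libraries of a table, the difference of responses 12, and the p53 comparisons 6 libraries rescaled with median-of-ratios factors over the 12. On simulated reads, 92.0% (p53-del) and 90.0% (wild-type) of genes changed by 1 on the log2 scale were called, and 100.0% at 2, with 14 and 5 false calls among 12700 and 12417 genes. The simulation used a fixed dispersion, changed only genes above a minimum mean, and held no library that stood apart. Its rates may therefore not hold for low HOX genes or for the wild-type lines. The design had named a count test in case of counts; for means, limma was used. Python 3.11.15, NumPy 2.4.6 and Matplotlib 3.10.9 did the rest. The members, gene lists and comparisons were chosen with earlier results of these data known. Called members are named with values, and from other lists mainly the called genes with the largest change. Some genes that enter the counts are not reported here by name. Where a symbol had several identifiers the most abundant was used.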

Additional observations from a re-analysis of the deposited data

Results flagged for a closer look

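The H-Ras response of HOXA5 differed between the backgrounds in the test of the difference itself: 1.17 ± 0.25 as p53-del minus wild-type (limma, adjusted p = 0.00817, 12 libraries), with 206 ± 49.1 counts with H-Ras and 152 ± 22.2 with vector in the p53-del lines, and 109 ± 3.88 with H-Ras and 185 ± 21.8 with vector in the wild-type lines. HOXB2 also differed, by -1.10 ± 0.34 (adjusted p = 0.0445), with 17.2 ± 1.22 counts with H-Ras and 15.6 ± 3.97 with vector in the p53-del lines, and 31.8 ± 2.44 and 12.9 ± 2.4 in the wild-type H-Ras and vector lines. Without the 2 wild-type libraries that stood apart the differences were 1.07 (adjusted p = 0.0108) for HOXA5 and -1.04 (adjusted p = 0.0799) for HOXB2.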

How the results depend on the processing

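No paired analysis was possible because the solved libraries carry no replicate number. The planned edgeR and DESeq2 alternatives were not run on the solved reads. Members kept their direction in nearly all alternatives: of 1164 values 41 had the opposite sign, none of them called, and 1088 stayed on the same side of the threshold, 62 lost a call and 14 gained one. With each library left out in turn, members called were 6 to 7 (7 with all libraries) in the p53-del H-Ras comparison, 4 to 6 (6) in the wild-type one, 1 to 3 (2) for the difference, 3 to 7 (9) between H-Ras lines and 2 to 4 (5) between vector lines. All genes called were then 5833 to 6860 (7149), 1693 to 4110 (3185), 1457 to 2215 (2240), 2863 to 6041 (4625) and 2210 to 4389 (3783). The wild-type H-Ras comparison called 4833 genes in a fit of 12 libraries and 6792 without wild-type H-Ras C and vector A, an alternative chosen after seeing the data, while its members called stayed within 4 and 8. For the difference, a pseudocount of 5 called 4 members and no filter called 1. At a group mean of at least 30, 12 HOX genes were detected in the p53-del H-Ras line (19 at 10). Depth limits the low genes: under 10 normalized counts the filter removes them.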
